A study of Mus musculus with 10 samples.

Results

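Car2, Rassf1, Tinagl1, Tgm1 and Stmn4 are 5 of the 24520 genes in a table of mouse RNA levels, and they were selected on their measured RNA values in these data, which were far higher after siRNA against Cbx3 than after control siRNA in cells labelled NPC (neural progenitor cells). All 5 were among the 11956 genes that were tested, meaning those with at least 1 RPKM (read number scaled by transcript length and by library size) in at least 2 of the 10 libraries. The high values in the Cbx3 siRNA libraries of the NPCs against their controls are therefore what chose the genes, and they are given below as a description without a test. The other comparisons are the levels in embryonic stem cells (ESCs) with and without Cbx3 siRNA, the response to Med26 siRNA in NPCs, and the levels in the control libraries of the 2 cell stages.

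RNA was sequenced from the mouse ESC line V6.5, grown on irradiated embryonic fibroblasts with leukemia inhibitory factor, and from NPC monolayers derived from it through embryoid bodies. Both stages received control siRNA against luciferase or siRNA against Cbx3, and the NPCs also received siRNA against Med26, so that the 10 libraries form 5 groups of 2 biological replicates. The NPC protocol states transfection on day 5 and harvest on day 8, and no such days were available for the ESCs. All groups come from 1 cell line, the controls were transfected too, and p-values measure the spread between replicates whose independence the labels state only as "biological".

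Cbx3 encodes HP1 gamma, a chromodomain protein that binds methylated histone H3 lysine 9 and is found both in silent chromatin and on transcribed genes. Med26 is part of Mediator, which couples transcription factors to RNA polymerase II. The 5 genes have no common pathway in textbook accounts. Car2 is a cytosolic carbonic anhydrase that interconverts carbon dioxide and bicarbonate, Tgm1 is a membrane-anchored transglutaminase that cross-links proteins of the epidermal cornified envelope, Rassf1 encodes Ras-association domain scaffold proteins tied to the Hippo kinases and to microtubules, Tinagl1 encodes a secreted matrix protein related to tubulointerstitial nephritis antigen, and Stmn4 is a neural member of the stathmin family of tubulin-binding proteins.

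The 250 bases before a RefSeq transcription start were available for 3 of the 5 genes (build GRCm38.p6), and are printed because genes with similar changes differed in promoter composition. The table lists 2 starts for each of the 3 genes. The window of the first listed start is shown 5′ to 3′ on the strand of the gene, with capitals marking matches, on either strand, to the GC box GGGCGG, the AP-1 motif TGANTCA, the TEAD motif GGAATG or the TATA motif TATAAA.
Rassf1, chr9:107551305-107551554, plus strand: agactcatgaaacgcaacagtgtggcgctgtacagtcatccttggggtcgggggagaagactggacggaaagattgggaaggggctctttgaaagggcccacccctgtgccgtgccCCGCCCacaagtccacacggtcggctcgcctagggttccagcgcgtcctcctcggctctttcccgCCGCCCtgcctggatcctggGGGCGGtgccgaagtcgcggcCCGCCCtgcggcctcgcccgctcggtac
Tinagl1, chr4:130175123-130175372, minus strand: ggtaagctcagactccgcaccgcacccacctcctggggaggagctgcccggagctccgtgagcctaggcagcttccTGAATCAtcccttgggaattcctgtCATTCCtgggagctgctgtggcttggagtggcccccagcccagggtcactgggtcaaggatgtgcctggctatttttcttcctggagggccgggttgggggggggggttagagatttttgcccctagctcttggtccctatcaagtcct
Tgm1, chr14:55713493-55713742, minus strand: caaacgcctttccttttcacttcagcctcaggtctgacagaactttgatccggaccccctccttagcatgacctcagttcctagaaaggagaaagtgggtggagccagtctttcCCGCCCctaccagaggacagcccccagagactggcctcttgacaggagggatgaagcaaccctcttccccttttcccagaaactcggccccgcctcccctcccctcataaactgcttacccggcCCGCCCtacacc

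The Rassf1 window held 23 CG dinucleotides and 4 GC boxes, and 86.7% of the 32851 promoter windows of the same length held fewer CG dinucleotides. The Tgm1 window held 7 CG dinucleotides and 2 GC boxes, close to the median of 6 CG dinucleotides over all windows. The Tinagl1 window held 5 CG dinucleotides, no GC box, 1 AP-1 match and 1 TEAD match. Over all windows, 32.7% held a GC box, 6.75% an AP-1 match, 12.6% a TEAD match and 12.4% a TATA match, and none of the 3 printed windows held the TATA motif. No matches overlapped in a printed window. At the second listed start, Rassf1 had 24 CG dinucleotides and 1 GC box, Tinagl1 had 13 and 4, and Tgm1 had 8 and no GC box, and none of these 3 windows had an AP-1, TEAD or TATA match. The motifs were chosen after the sequences had been seen, and a match is only a run of letters.

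The targeted genes were lower in the libraries labelled as knockdowns. Cbx3 measured 9.37 and 9.65 RPKM in the NPC controls against 0.425 and 0.249 after Cbx3 siRNA, and Med26 measured 7.56 and 6.78 RPKM in the NPC controls against 3.04 and 3.07 after Med26 siRNA (limma adjusted p of 0.000171 for Cbx3 and 0.00398 for Med26). In ESCs, Cbx3 measured 14.0 and 56.4 RPKM in the controls and 1.01 and 1.96 RPKM after Cbx3 siRNA. The ESC replicates stood further apart than the NPC replicates, with a median absolute difference between replicates of 0.272 and 0.256 on the log2 scale in the ESC groups against 0.0901 to 0.1 in the NPC groups. The approximate depth read from the lowest values was 23300000 to 51200000 reads in ESCs and 45700000 to 63800000 reads in NPCs. Among the 8 neural progenitor markers, Nes, Sox2, Sox1 and Pax6 were present in the NPC controls (33.5 to 34.9, 29.6 to 29.9, 8.29 to 9.22 and 3.39 to 3.42 RPKM), whereas Fabp7, Hes5, Pou3f2 and Zic1 stayed below 0.4 RPKM in every library. In the ESC controls, Nes measured 6.35 and 15.4 RPKM, Sox2 131 and 72.1, Sox1 5.52 and 5.50, and Pax6 0.704 and 2.07. Sox2 was called lower in NPC controls than in ESC controls (log2 difference -1.68, limma adjusted p = 0.014). Nes and Sox1 were called higher, in a comparison that called 1208 of 11956 tested genes higher and 710 lower. The summed RPKM of the 8 markers was 95.7 to 144 in ESC controls and 75.9 to 77.9 in NPC controls. Of 8 pluripotency markers, 6 were called lower in NPC controls than in ESC controls (median log2 difference -2.10), beside 710 of 11956 over all tested genes. Pou5f1 measured 484 to 497 RPKM in the NPC controls and 308 to 536 in the ESC controls.

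Car2 was the most abundant of the 5 in every library. Its RPKM was 65.4 and 67.4 in the NPC controls, 196 and 202 after Cbx3 siRNA and 111 and 113 after Med26 siRNA. In ESCs it was 27.2 and 47.5 in the controls and 46.2 and 108.5 after Cbx3 siRNA. The 3 NPC groups did not overlap, whereas the lower ESC library with Cbx3 siRNA lay below the higher ESC control. The mean after Cbx3 siRNA in NPCs, 199 ± 4.43 RPKM (SD, n = 2), was 3.0 times that of the controls, 66.4 ± 1.37 (SD, n = 2). On the log2(RPKM + 1) scale used for all tests, which understates the change of low genes, the difference was 1.57 with a standard error of 0.05.

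Tgm1, the other enzyme, had a different order of levels because its ESC values were high. It measured 11.7 and 18.8 RPKM in ESC controls and 16.3 and 29.0 after Cbx3 siRNA in ESCs. In NPCs the controls were lowest of all groups at 5.67 and 6.43 RPKM, the Med26 siRNA libraries measured 10.4 and 11.9, and the Cbx3 siRNA libraries measured 18.6 and 19.2. The NPC libraries with Cbx3 siRNA thus lay at the upper end of the ESC controls, from which they differed by less than the spread of those controls. The mean of 18.9 ± 0.363 RPKM (SD, n = 2) was 3.12 times the NPC control mean of 6.05 ± 0.540 (SD, n = 2), a log2 difference of 1.5 with a standard error of 0.09.

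Rassf1 had overlapping values after control and Med26 siRNA in NPCs and was highest after Cbx3 siRNA. Its RPKM was 9.23 and 10.7 in NPC controls, 9.10 and 10.3 after Med26 siRNA and 29.2 and 33.3 after Cbx3 siRNA. In ESCs it measured 4.24 and 7.07 in the controls and 5.37 and 18.9 after Cbx3 siRNA. The Cbx3 siRNA libraries of the NPCs stood above all other 8 libraries. The NPC mean after Cbx3 siRNA of 31.2 ± 2.89 RPKM (SD, n = 2) was 3.14 times that of the controls, 9.95 ± 1.03 (SD, n = 2), a log2 difference of 1.56 with a standard error of 0.10.

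Tinagl1 was a low gene in which the NPC controls lay within the ESC range. It measured 2.39 and 1.94 RPKM in NPC controls, 5.17 and 5.45 after Med26 siRNA and 8.02 and 8.32 after Cbx3 siRNA. In ESCs the controls measured 0.629 and 2.85 RPKM and the Cbx3 siRNA libraries 0.701 and 4.47. The 3 NPC groups were separate, while in ESCs the first replicate of both groups was low and the second high. The NPC mean after Cbx3 siRNA was 8.17 ± 0.212 RPKM (SD, n = 2), 3.78 times the control mean of 2.16 ± 0.321 (SD, n = 2), and the log2 difference was 1.54 with a standard error of 0.09.

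Stmn4 was the least abundant of the 5 and the one with the fewest reads. It measured 1.65 and 1.76 RPKM in NPC controls, 1.94 and 2.082 after Med26 siRNA and 5.56 and 7.78 after Cbx3 siRNA. In ESCs it was listed at 0 and 0.857 RPKM in the controls and at 0.0454 and 1.71 RPKM after Cbx3 siRNA. At the approximate depths these ESC values stand for about 0 and 27 reads in the controls and about 2 and 52 reads after Cbx3 siRNA, so the first ESC replicates were at the edge of detection. The NPC mean after Cbx3 siRNA was 6.67 ± 1.57 RPKM (SD, n = 2), 3.92 times the control mean of 1.70 ± 0.0817 (SD, n = 2), and the log2 difference was 1.49 with a standard error of 0.14.

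**Figure D1:**
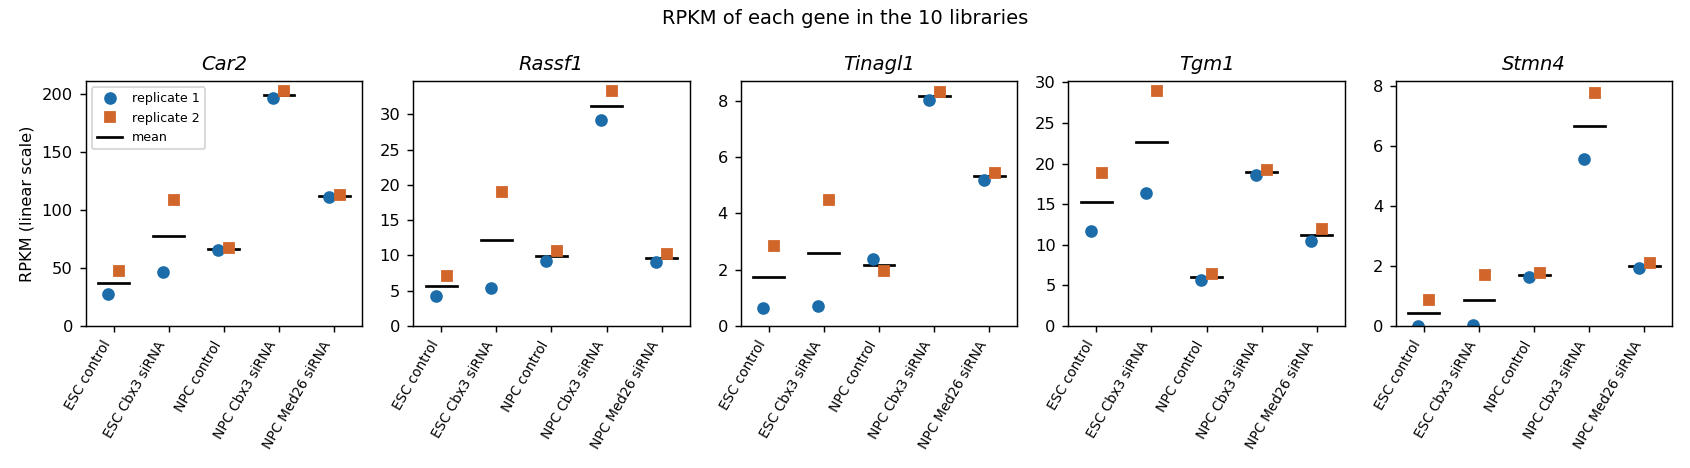
RPKM on a linear axis that starts at 0, with a panel for each gene, 5 groups of 2 libraries on the horizontal axis, circles for replicate 1, squares for replicate 2 and bars for group means. The NPC libraries with Cbx3 siRNA were the highest in 4 panels, and in the Tgm1 panel the ESC libraries reached 29.0 RPKM.

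By group mean, Car2 and Tinagl1 shared 1 order at the top, with NPC Cbx3 siRNA first and NPC Med26 siRNA second. For both these were followed by ESC Cbx3 siRNA, NPC control and ESC control. ESC Cbx3 siRNA and NPC control overlapped for both genes, and NPC control and ESC control overlapped for Tinagl1 (1.74 RPKM in ESC control) and not for Car2. Rassf1 ran from NPC Cbx3 siRNA through ESC Cbx3 siRNA (12.2 RPKM), NPC control and NPC Med26 siRNA to ESC control (5.65 RPKM), and only the first step and the last separated groups that did not overlap. Stmn4 ran from NPC Cbx3 siRNA through NPC Med26 siRNA and NPC control to ESC Cbx3 siRNA and ESC control, where the groups on either side of each of the last 2 steps overlapped. Tgm1 was highest on average in ESC Cbx3 siRNA (22.7 RPKM), then in NPC Cbx3 siRNA, ESC control (15.3 RPKM), NPC Med26 siRNA and NPC control, and only the last of these steps separated groups that did not overlap.

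Ranked by log2 difference after Cbx3 siRNA in NPCs, the 5 genes held ranks 3 (Car2), 4 (Rassf1), 5 (Tinagl1), 7 (Tgm1) and 8 (Stmn4) of 11956. The other genes of the top 8 included 3830417A13Rik at 1.59 and the simple-epithelium keratin gene Krt8 at 1.51. Just below Stmn4 came Cxcl10 at 1.46 and S100a6 and Krt7 at 1.41 each. The test on that comparison called 13.1% of all genes at an adjusted p below 0.05, and nothing is read from this for the 5 genes that the comparison chose.

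The ESC libraries took no part in choosing the genes and give the response to Cbx3 siRNA before differentiation. The time from transfection to harvest was not available for ESCs and may differ from that in NPCs. In the fit without a replicate block, none of the 5 passed the test there. Car2 was nearest, with means of 77.3 ± 44.0 RPKM (SD, n = 2) after Cbx3 siRNA and 37.3 ± 14.3 (SD, n = 2) in controls, a log2 difference of 0.96 (95% interval 0.07 to 1.84, limma adjusted p = 0.866). Rassf1 differed by 0.79 (interval -0.29 to 1.88), Tgm1 by 0.52 (interval -0.13 to 1.17), Stmn4 by 0.30 (interval -0.74 to 1.34) and Tinagl1 by 0.28 (interval -0.99 to 1.56), each with a limma adjusted p of 1. For each of the 5 genes the 2 groups overlapped. Over all genes the limma test called 0 of 11956, that is 0%, and 645 had an unadjusted p below 0.05; Cbx3 itself, with a log2 difference of -3.59, had a limma adjusted p of 0.291 in this comparison. Leaving out the second ESC Cbx3 siRNA library turned Rassf1 to -0.03, Tinagl1 to -0.56 and Stmn4 to -0.38, and leaving out the first ESC control turned Tinagl1 to -0.34 and Stmn4 to -0.14. Over the 4 ESC libraries left out in turn, the difference ran from 0.35 to 1.57 for Car2 and from 0.12 to 0.92 for Tgm1, the extremes being without the second and without the first Cbx3 siRNA library. Each of those fits set 1 library against a group with both replicate numbers. Between same-numbered libraries, the log2 difference was above 0 in both replicates for all 5 genes. It was 0.74 and 1.18 for Car2, 0.28 and 1.30 for Rassf1 and 0.44 and 0.60 for Tgm1. For Tinagl1 it was 0.06 and 0.51, and for Stmn4 0.06 and 0.54. No label states that these libraries are paired, and fits with a replicate block are given below. Whether the response of these 5 genes differs between ESCs and NPCs was not tested, since the NPC response is what chose them.

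Of the 5 genes, 3 rose after Med26 siRNA. Tinagl1 rose by 1.0 on the log2 scale (standard error 0.09, limma adjusted p = 0.00394), which is 2.46 times the control mean. Tgm1 rose by 0.78 (standard error 0.09, limma adjusted p = 0.00609), or 1.84 times, and Car2 by 0.75 (standard error 0.05, limma adjusted p = 0.00165), or 1.69 times. Rassf1 differed by -0.04 with a 95% interval of -0.28 to 0.21 (limma adjusted p = 0.848), and Stmn4 by 0.15 with an interval of -0.18 to 0.49 (limma adjusted p = 0.505). Both intervals lie below the differences of the 3 genes that passed. The background is that 6.90% of all tested genes were called higher after Med26 siRNA, and that in 29.1% both Med26 libraries lay above both controls, as they did for Car2, Tinagl1, Tgm1 and Stmn4. The comparison shares its 2 control libraries with the one that chose the genes, so low control values would raise both. The 3 calls rest on the small spread of the NPC libraries: fitted with all 10 libraries they were lost, at limma adjusted p of 0.529 for Car2, 0.572 for Tinagl1 and 0.332 for Tgm1, while leaving out any 1 NPC library ended none of them.

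**Figure D2:**
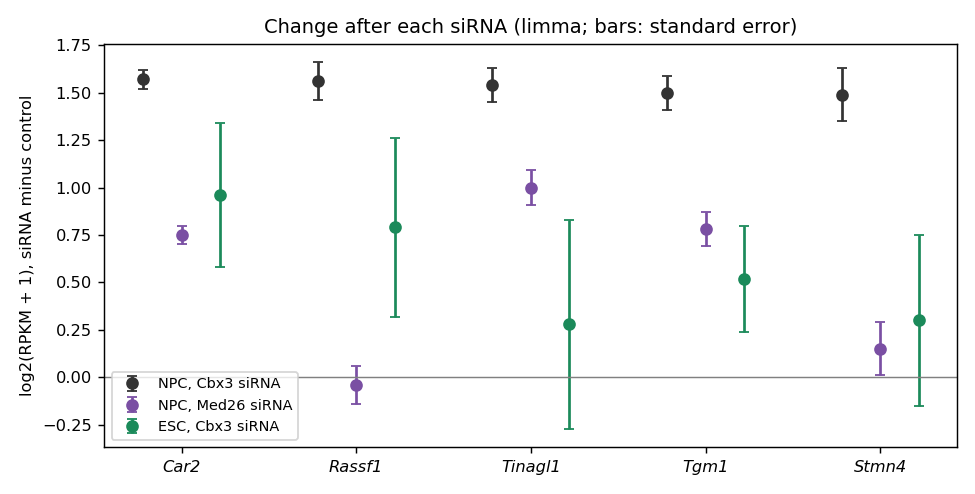
Difference in log2(RPKM + 1) between siRNA and control libraries for each gene, with limma standard errors as bars, after Cbx3 siRNA in NPCs (black), Med26 siRNA in NPCs (purple) and Cbx3 siRNA in ESCs (green). The black points, which chose the genes, lie between 1.49 and 1.57, while the purple points of Rassf1 (-0.04) and Stmn4 (0.15) lie near 0 and the green points have standard errors of 0.28 to 0.55.

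Before knockdown, Tgm1 was the 1 gene of the 5 that differed between the stages by the test. It was lower in NPC controls than in ESC controls by a log2 difference of -1.17 (standard error 0.28, limma adjusted p = 0.0303), 0.396 times the ESC mean, in a comparison that called 16.0% of all genes. This call was lost when any 1 of the 6 NPC libraries or the second ESC control was left out, at limma adjusted p of 0.0599 to 0.164, and in a fit of the 4 control libraries alone, at 0.0899. The differences of Stmn4 (0.99, limma adjusted p = 0.166), Car2 (0.87, limma adjusted p = 0.156), Rassf1 (0.75, limma adjusted p = 0.303) and Tinagl1 (0.33, limma adjusted p = 0.699) did not pass in this fit. Without the first or the second ESC control these differences were 0.48 and 1.26 for Car2, 0.44 and 1.06 for Rassf1, -0.29 and 0.95 for Tinagl1 and 0.54 and 1.43 for Stmn4, and at a pseudocount of 0.1 that of Stmn4 was 2.54 and that of Tinagl1 was 0.62. When 1 of the 2 ESC Cbx3 siRNA libraries was left out, 3 of them passed, at limma adjusted p of 0.0363 and 0.0365 for Car2, 0.0408 and 0.041 for Rassf1 and 0.0481 and 0.0486 for Stmn4. The NPC controls of this comparison are also those of the comparison that chose the genes. Low NPC control values would favour both the choice and a call of lower in NPC controls. The Tgm1 call is therefore not independent of the choice.

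Other annotated transcripts of the same genes gave nearly the same picture. Car2 had 1 row in the table, Rassf1 and Tinagl1 had 2 each, and Tgm1 and Stmn4 had 3 each. The values of the further rows were 0.900 to 0.971 of the row used for Rassf1, 0.903 to 0.940 for Tinagl1, 0.951 to 0.979 for Tgm1 and 0.942 to 1.02 for Stmn4 across the libraries with a value above 0. For Rassf1, whose transcripts begin at 2 separate starts and encode proteins with different amino ends, the second row went from 8.53 and 9.83 RPKM in NPC controls to 27.3 and 30.1 after Cbx3 siRNA. The rows share most of their exons and therefore most of their reads, so these values do not tell which start was used.

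Relatives of the 5 genes were examined next, by the test of Cbx3 siRNA against control in NPCs, which called 7.80% of all tested genes higher and 5.33% lower. Of the carbonic anhydrases other than Car2, 4 of 15 were tested, of which Car13 rose by 0.50 (limma adjusted p = 0.021), Car14 fell by 0.64 (limma adjusted p = 0.00901), and Car4 and Car3 differed by 0.13 and 0.25 without passing. Among transglutaminases, Tgm2, the widely expressed tissue enzyme, went from 2.09 and 1.98 RPKM to 6.72 and 6.59, a rise of 1.34 (standard error 0.07, limma adjusted p = 0.000731). Tgm2 also rose after Med26 siRNA, by 0.56 (limma adjusted p = 0.00848), and in ESCs it measured 2.94 and 2.32 RPKM in controls and 3.98 and 5.43 after Cbx3 siRNA, a difference of 0.65 that did not pass. The third tested transglutaminase gene, Tgm4, rose by 0.37 (limma adjusted p = 0.0289), and the other 6 genes of that list stayed below 0.7 RPKM in every library.

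Of the RASSF genes other than Rassf1, 5 of 9 were tested and none rose. Rassf2 fell by 0.57 (limma adjusted p = 0.00994) and Rassf7 by 0.26 (limma adjusted p = 0.0403), and Rassf3, Rassf8 and Rassf6 differed by 0.21, 0.31 and -0.26 without passing. Among the other stathmins, Stmn1, the ubiquitous member, fell by 0.45 (limma adjusted p = 0.00901), Stmn2 rose by 0.29 (limma adjusted p = 0.0303) and Stmn3 differed by -0.34 without passing. Tinag, the relative of Tinagl1, was listed at 0 in all 10 libraries. At least 1 tested relative fell in the carbonic anhydrase, RASSF and stathmin families, whereas both further tested transglutaminases rose. None of these relatives was called in ESCs. The medians over the tested relatives were 0.19 for carbonic anhydrases, 0.85 for transglutaminases, -0.26 for RASSF genes and -0.34 for stathmins, beside 0.007 over all tested genes.

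**Figure D3:**
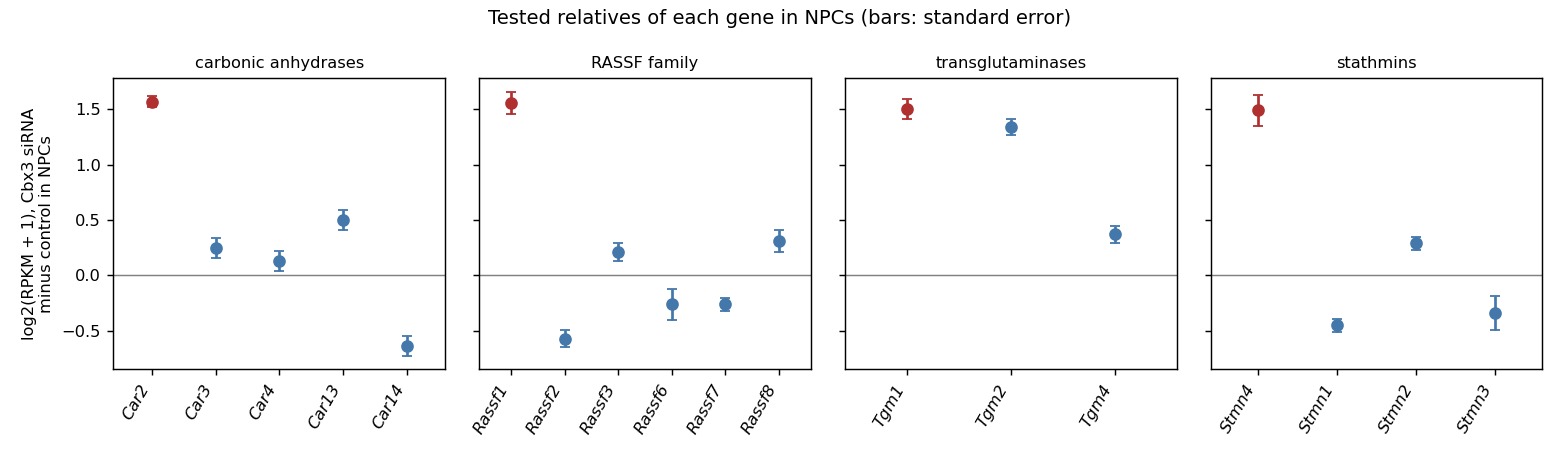
Difference in log2(RPKM + 1) between Cbx3 siRNA and control in NPCs, with limma standard errors as bars, for the chosen gene (red) and its tested relatives (blue) in 4 families. Tgm2 at 1.34 is the relative nearest to its chosen gene, and Car14 at -0.64, Rassf2 at -0.57 and Stmn1 at -0.45 lie below 0.

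Genes around the 5 in their pathways moved in both directions after Cbx3 siRNA, where the shares over all tested genes were 7.80% higher and 5.33% lower. In the Hippo pathway, the kinase cascade that restrains the coactivator Yap1, 3 of 16 genes rose and 1 fell, led by the DNA-binding partners Tead4 (0.50, limma adjusted p = 0.0307) and Tead2 (-0.34, limma adjusted p = 0.0201) and the kinase Lats2 (0.33, limma adjusted p = 0.0357), with a list median of 0.13. Of 6 genes known as targets of Yap1, 3 rose, namely Ankrd1 (1.29, limma adjusted p = 0.00475), Axl (0.85, limma adjusted p = 0.00486) and Ccn2 (0.45, limma adjusted p = 0.0291), and the list's median was 0.40. Among the genes of the cornified envelope and epidermis, Dsp rose by 0.55 (limma adjusted p = 0.00901) and Ppl by 0.38 (limma adjusted p = 0.0226). Krt14 measured 0.249 and 0.259 RPKM in NPC controls and 1.23 and 1.20 after Cbx3 siRNA, the only libraries in which it reached 1 RPKM, so that it was tested only because it was high there and its call is not counted. Krt5, Trp63 and Ivl, which define keratinocytes, stayed at or below 0.1 RPKM in all libraries.

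For the next lists too, the shares over all tested genes after Cbx3 siRNA in NPCs were 7.80% higher and 5.33% lower. Of 14 basement membrane genes, 4 rose and 1 fell, with a median of 0.22. Those that rose included the laminin chains Lamb3 (0.61, limma adjusted p = 0.0243) and Lamb2 (0.55, limma adjusted p = 0.0147). Of 8 integrins, receptors for such matrix, Itga3 (0.84, limma adjusted p = 0.00611) and Itga5 (0.76, limma adjusted p = 0.0369) rose and 2 others fell, among them Itgb8 (-0.45, limma adjusted p = 0.0109), with a median of 0.13. Of 11 bicarbonate and proton transporters, the lactate carrier Slc16a1 rose by 0.50 (limma adjusted p = 0.01) and the proton exchanger Slc9a8 fell by 0.39 (limma adjusted p = 0.0398), with a median of 0.07. Of 9 neuronal microtubule and growth cone genes, Tubb3 fell by 0.39 (limma adjusted p = 0.0242) and none rose, with a median of -0.20. After Med26 siRNA, the numbers called higher were 3 of 16 in the Hippo list (with 1 lower), 2 of 6 Yap1 targets, 2 of 6 epidermal genes and 2 of 14 basement membrane genes, beside 6.90% higher and 6.46% lower over all tested genes. In a fit of all 10 libraries, 1 gene of 11956 was called for Cbx3 siRNA in NPCs and 15 for Med26 siRNA, so the calls for relatives and pathway genes rest on the spread of the NPC libraries alone.

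Markers of other cell types moved beside the 5 genes. The summed RPKM of 9 epithelial markers was 722 to 728 in NPC controls. It was 1093 to 1131 after Cbx3 siRNA and 985 to 1007 after Med26 siRNA. Of the 9 genes, 5 were called higher after Cbx3 siRNA (7.80% of all tested genes) and 8 after Med26 siRNA (6.90%). Krt18 made up 132 to 141 RPKM of the control sums and 303 to 326 after Cbx3 siRNA. Krt8 made up 59.4 to 62.6 and 168 to 183 RPKM. Epcam and Cdh1 differed by -0.01 and -0.17 after Cbx3 siRNA without passing. The sum of 8 neural progenitor markers was 75.9 to 77.9 RPKM in NPC controls. It was 56.1 to 59.1 after Cbx3 siRNA and 91.8 to 94.4 after Med26 siRNA. Of the 4 tested genes of this list, 3 were called lower after Cbx3 siRNA (5.33% of all tested genes). Sox1, Pax6 and Sox2 fell by 0.71, 0.98 and 0.55, and Nes differed by -0.14 without passing. The 6 smooth muscle markers summed to 358 to 365 RPKM in NPC controls, 470 to 479 after Cbx3 siRNA and 544 to 589 after Med26 siRNA. Tagln alone made up 280 to 284, 366 to 380 and 447 to 494 RPKM of these sums. After each siRNA, 3 of the 4 tested genes of this list were called higher (7.80% and 6.90% of all tested genes). Cnn1 differed by -0.11 after Cbx3 siRNA without passing. The 7 keratinocyte markers in the table summed to 0.923 to 1.05 RPKM in NPC controls and 1.93 to 2.09 after Cbx3 siRNA. Most of that rise was Krt14, which made up 0.249 and 0.259 RPKM of the control sums and 1.23 and 1.20 after Cbx3 siRNA. In ESCs the epithelial sum was 296 to 483 RPKM in controls and 270 to 630 after Cbx3 siRNA. Of the other lists, summed RPKM in NPC controls and after Cbx3 siRNA was 3.56 to 3.64 and 3.93 to 4.63 for trophoblast markers, 2.71 to 3.25 and 3.35 to 3.69 for primitive and visceral endoderm, 50.9 to 52.2 and 37.3 to 42.5 for neurons, 17.5 to 20.8 and 15.1 to 16.4 for oligodendrocytes, 1.83 to 2.72 and 2.17 to 2.42 for erythroid cells, and 675 to 687 and 577 to 602 for pluripotent cells. Fibroblast markers summed to 5.96 to 7.61 RPKM in NPC controls and 8.40 to 9.54 after Cbx3 siRNA, and to 51.0 to 75.4 and 63.2 to 69.5 in the ESC groups, which grew on feeder fibroblasts. In these bulk samples a change in the make-up of the culture and a change in RNA per cell cannot be told apart, and the part of these markers in the values of the 5 genes was not tested.

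The 2 nearest tested genes on each side of each chosen gene, by the order in the RefSeq gene table, were looked at in the same comparison. The chosen genes were picked for their large rises there, so smaller differences at their neighbours were largely fixed in advance. Of the 20 neighbours, 2 rose and 1 fell after Cbx3 siRNA in NPCs, a share near the 13.1% called over all tested genes. Both that rose flank Car2, namely Car13 (0.50) and Cyp7b1, an oxysterol hydroxylase gene (0.61, limma adjusted p = 0.00603), while the closer neighbours Car3 and Ythdf3 differed by 0.25 and 0.17 without passing. Pnma2, next but one to Stmn4, fell by 0.64 (limma adjusted p = 0.00639), and Ptk2b, Trim35 and Dpysl2 around Stmn4 differed by -0.21, 0.11 and -0.26 without passing. Around Rassf1 the neighbours Cyb561d2, Nprl2, Tusc2 and Hyal2 lay between -0.24 and 0.08, around Tgm1 the neighbours Gmpr2, Tinf2, Rabggta and Dhrs1 lay between -0.08 and 0.19, and around Tinagl1 the neighbours Adgrb2, Pef1, Serinc2 and Fabp3 lay between -0.13 and 0.27, none past the test.

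**Figure D4:**
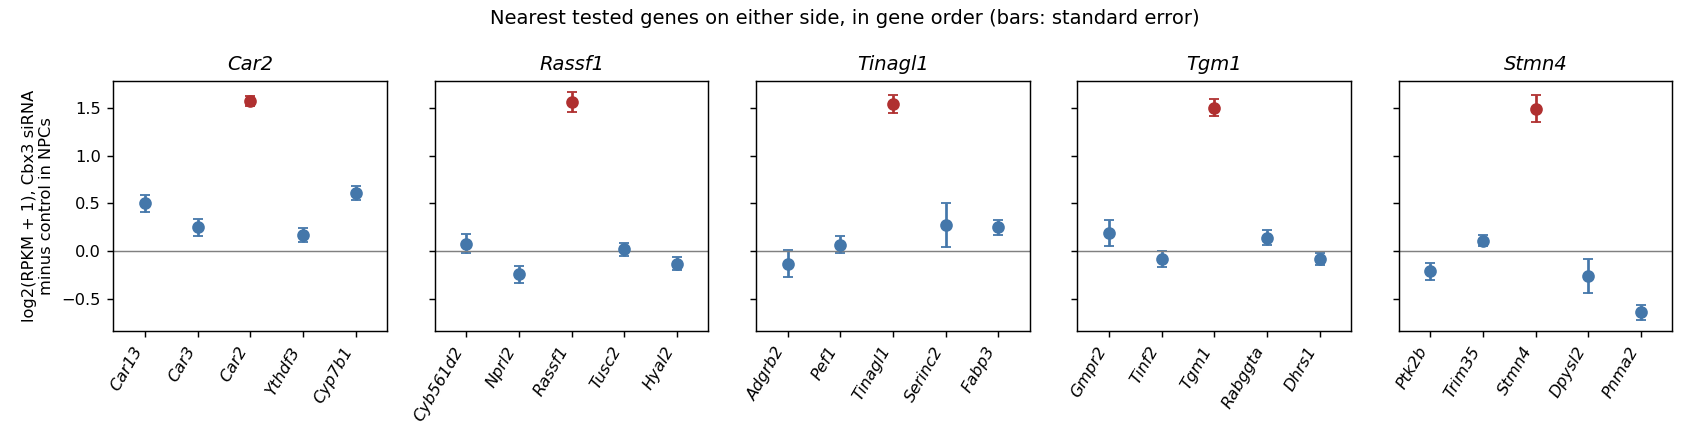
Difference in log2(RPKM + 1) between Cbx3 siRNA and control in NPCs, with limma standard errors as bars, for each chosen gene (red) and the 2 nearest tested genes on each side in gene order (blue). The blue points lie between -0.64 (Pnma2) and 0.61 (Cyp7b1), and the red points, which chose the genes, lie between 1.49 and 1.57.

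Across the 10 libraries, the log2(RPKM + 1) values of Car2, Rassf1, Tinagl1 and Stmn4 had Pearson correlations of 0.858 (Rassf1 with Tinagl1) to 0.944 (Car2 with Tinagl1) with each other, and Tgm1 had correlations of 0.161 (with Stmn4) to 0.400 (with Rassf1) with them. These are descriptions over 10 libraries that include those used to choose the genes. The pattern most like Car2 was that of Dusp14 (0.981), Nktr (0.980) and Cldn4 (0.978), and that most like Rassf1 was Slc6a14 (0.992), Rab3b (0.976) and AA986860 (0.974). Tinagl1 was most like the keratin gene Krt7 (0.984), the folate receptor gene Folr1 (0.984) and the imprinted RNA H19 (0.978). Stmn4 was most like Plin2 (0.989), Shisa5 (0.985) and Leng9 (0.978). Tgm1 was most like Rtn4 (0.987), S100a6 (0.968) and Selenot (0.947), which like Tgm1 were lower on average in NPC controls than in ESC controls, by log2 differences of -0.31, -1.39 and -0.53.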

How the data were processed

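RNA levels of 10 libraries were read from 1 deposited table of RPKM values, which the authors computed per RefSeq transcript; per the submitters' processing notes TopHat2 2.08 and the build mm9 were used, and the counting program was not given in the sources used here. Libraries were made from Trizol RNA with a TruSeq kit, per the labels' protocols. Of 35860 rows, 99.07% matched a gene symbol in a RefSeq gene table; the row with the highest mean RPKM stood for its gene, and the 334 unmatched rows were kept under their accession. Deposited values were neither rescaled nor rounded. Genes that reached 1 RPKM in 2 or more libraries (11956 of 24520) were tested on log2(RPKM + 1) with limma 3.58.1 in R 4.3.3 (intensity trend, two-sided, Benjamini-Hochberg adjustment over all tested genes, threshold 0.05). NPC comparisons used the 6 NPC libraries, and comparisons with ESCs used all 10. Tables and figures were made with Python 3.11.15, pandas 2.3.3 and matplotlib 3.10.9, and the fit was tested on simulated data. Depth was estimated from the steps of low values; 62.7 to 68.9% of them lay within 0.1 of a whole read, too few for a count test, so read numbers are approximate.

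The 5 genes, the pathway and marker lists and the tests were chosen with earlier results of these data known, and the lists' directions are no independent evidence. Named genes were the 5, their family members, up to 3 called genes with the largest difference in each other list, the 2 nearest tested genes on each side, the 3 genes most correlated with each, and the genes next to them in rank. The individual epithelial, neural progenitor, keratinocyte, smooth muscle and pluripotency markers named were chosen after their values were seen. A gene that reached 1 RPKM in 2 libraries only through the higher group of a comparison was left out of the printed counts of called genes for its list. Some genes that this rule names are not reported here. Replicate numbers 1 and 2 are not stated to pair libraries, so no block entered the reported fits. Alternatives were the pseudocount (0.1 and 0.5), the filter, median-ratio scaling, summed transcript rows, the library set, a replicate block, no intensity trend and leaving out each library. Promoter windows of 250 bases came from RefSeq (GRCm38.p6).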

Additional observations from a re-analysis of the deposited data

How the results depend on the processing

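The counts of called genes moved with the libraries used and, most in ESCs, with a replicate block. Cbx3 siRNA in ESCs called 0 genes as reported, 2 without the filter, and 0 to 1 when libraries were left out in turn (1 without the first ESC control). Med26 siRNA in NPCs called 1597 genes, 725 without the filter, 15 with all 10 libraries, and 164 to 1148 when libraries were left out (164 and 320 without the first and second Med26 library, 283 and 241 without the first and second control). NPC control against ESC control called 1918 genes, 47 with the 4 controls alone, and 185 to 2699 when libraries were left out (185 and 242 without the first and second NPC control). Cbx3 siRNA in NPCs called 1570 genes, 1020 without the filter, 1 with all 10 libraries, and 391 to 1063 when libraries were left out (391 and 484 without the first and second control, 491 and 524 without the first and second Cbx3 library). The cause of these moves was not tested.

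With a replicate block, the counts were 813 for Cbx3 siRNA in ESCs (55 with the 4 ESC libraries alone), 3705 for Med26 siRNA, 6912 for NPC against ESC control and 3495 for Cbx3 siRNA in NPCs. Libraries with the same number deviated together (correlations of 0.892 in ESCs and 0.423 to 0.461 in NPCs), but with 2 numbers per group and no label that ties them, this is only a hint from the data. Under the replicate block in ESCs, Car2 (adjusted p = 0.00352), Tgm1 (0.00885) and Rassf1 (0.0468) passed the limma test after Cbx3 siRNA, and with the 4 ESC libraries alone Car2 passed (0.0284). The block also moved NPC against ESC control past the threshold for Car2 (9.16e-05), Rassf1 (0.0098), Stmn4 (0.00047) and Tinagl1 (0.0431), and changed no call of the 5 genes after Med26 siRNA.

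Directions changed only where libraries were left out. In ESCs, Rassf1 became -0.03, Tinagl1 -0.56 and Stmn4 -0.38 without the second Cbx3 library, and Tinagl1 became -0.34 and Stmn4 -0.14 without the first control. After Med26 siRNA, Rassf1 became 0.06 without the second control and 0.04 without the first Med26 library. NPC against ESC control became -0.29 for Tinagl1 without the first ESC control. Over the left-out libraries these values ranged in ESCs from -0.03 to 1.62 for Rassf1, from -0.56 to 1.13 for Tinagl1 and from -0.38 to 0.99 for Stmn4, after Med26 siRNA from -0.13 to 0.06 for Rassf1, and between the stages from -0.29 to 0.95 for Tinagl1. Of the values of the 5 genes under all alternatives, 91 of 100 kept direction and side of the threshold for Cbx3 siRNA in ESCs, 70 of 75 for Med26 siRNA and 76 of 95 for NPC against ESC control. After Cbx3 siRNA in NPCs, 68 of 75 stayed within the replicate spread, and the largest moves were at a pseudocount of 0.1, to 1.88 for Tinagl1 and 1.89 for Stmn4.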
